A study of Mus musculus with 8 samples.

Results

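The immunoglobulin genes and the J chain gene were examined in CT26 tumours, which are mouse colon carcinoma grafts, from mice given propranolol and from control mice. Members were the rows of the count table annotated as immunoglobulin constant-region or V genes, together with Jchain, and they numbered 8 of 14133 genes. They were 5 constant-region genes (Ighm, Ighg2b, Ighg2c, Igha and Igkc), 2 kappa V genes (Igkv3-2 and Igkv3-4) and Jchain. The rule also named Mzb1, which is not analysed here. Bulk RNA sequencing covered 4 tumours from propranolol-treated mice and 4 tumours from control mice given PBS. All mice were wild type (WT) males of a strain that the labels spell BABL/C, and all carried subcutaneous CT26 tumours. Propranolol, which blocks beta-adrenergic receptors, was injected into the peritoneum daily once tumours had reached 70 to 100 mm3. Dose, age and collection day were not found in the labels. Nor do they state whether each tumour came from its own animal, so p-values describe the spread among these tumours, which may be technical.

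An antibody is built from paired heavy and light chains, each with a variable region, encoded by a V gene joined to shorter segments, and a constant region. The heavy constant gene sets the class: Ighm gives IgM, made before class switching, while Ighg2b and Ighg2c give IgG2 subclasses and Igha gives IgA. Igkc encodes the constant part of the kappa light chain, and the J chain links IgM and IgA into polymers. B lineage cells join these segments, and plasma cells, which secrete antibody, carry the most of these transcripts. In bulk tumour RNA, fewer cells of a type and less RNA per cell cannot be told apart.

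Both V genes lie just upstream of Igkc on the plus strand of chromosome 6 in GRCm39. Igkv3-4 (ENSMUSG00000096715) spans chr6:70648772-70649361, Igkv3-2 (ENSMUSG00000095351) spans chr6:70675433-70676051 and Igkc (ENSMUSG00000076609) spans chr6:70703419-70703950, which leaves 54.1 kb and 27.4 kb between each V gene and Igkc. The main exons of the V genes are shown because both come from the same V family and their counts rest on the bases that differ. These are the first 300 bases of each 310-base exon from the GENCODE M21 transcripts, plus strand, with differing bases in capitals. Their GRCm38 positions are chr6:70672068-70672367 for Igkv3-4 and chr6:70698758-70699057 for Igkv3-2.
Igkv3-4: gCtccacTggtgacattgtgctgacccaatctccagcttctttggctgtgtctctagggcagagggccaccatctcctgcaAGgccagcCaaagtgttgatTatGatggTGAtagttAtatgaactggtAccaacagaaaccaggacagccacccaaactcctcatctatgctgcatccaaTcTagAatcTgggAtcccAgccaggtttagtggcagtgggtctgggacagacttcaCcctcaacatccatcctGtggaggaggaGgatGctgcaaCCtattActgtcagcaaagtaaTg
Igkv3-2: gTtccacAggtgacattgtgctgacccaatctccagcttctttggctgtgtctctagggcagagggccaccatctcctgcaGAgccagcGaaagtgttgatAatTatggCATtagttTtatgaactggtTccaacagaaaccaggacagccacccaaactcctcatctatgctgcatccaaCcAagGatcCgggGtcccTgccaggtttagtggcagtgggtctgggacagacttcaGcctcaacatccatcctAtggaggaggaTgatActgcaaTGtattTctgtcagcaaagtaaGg
The exons differed at 27 of 310 bases (91.3% identity), and the longest identical run was 73 bases. The labels do not state how reads matching both were counted, so the split between the pair is uncertain.

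The 4 heavy constant genes lie on the minus strand of chromosome 12, in the order Ighm (ENSMUSG00000076617, chr12:113382178-113386350), Ighg2b (ENSMUSG00000076613, chr12:113266585-113271553), Ighg2c (ENSMUSG00000076612, chr12:113248945-113252552) and Igha (ENSMUSG00000095079, chr12:113218450-113223856) in the direction of transcription. Jchain (ENSMUSG00000067149) lies on chromosome 5 at chr5:88667668-88675750, minus strand. The 2 IgG2 genes are near relatives, with 84.4% identity over 1105 aligned bases of their GENCODE M21 transcripts. The 90-base window in which they differed most, at 30 bases, is shown with differing bases in capitals, because the subclass counts depend on such stretches. It covers bases 880 to 969 of the Ighg2b transcript and 877 to 966 of the Ighg2c transcript, 5′ to 3′.
Ighg2b: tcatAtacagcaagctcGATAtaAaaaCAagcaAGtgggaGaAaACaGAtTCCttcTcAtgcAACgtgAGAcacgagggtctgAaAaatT
Ighg2c: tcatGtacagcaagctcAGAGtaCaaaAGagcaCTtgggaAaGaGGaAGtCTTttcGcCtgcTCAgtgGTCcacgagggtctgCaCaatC
Inbred strains are known to carry either Ighg2c or its counterpart Ighg2a, and how reads from these mice were divided between IgG2 genes was not tested. Values named Ighg2c are therefore reads assigned to that gene model, and whether they came from Ighg2a transcripts was not tested.

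Library totals were 15483409 to 17511937 counts. Every row of the table exceeded 1 CPM (counts scaled to a common library size) in at least 2 libraries. Control tumour 4 stood apart in skeletal muscle transcripts: the summed CPM of 7 muscle markers was 5.60 to 75.1 in propranolol tumours, and reached 804 in control tumour 4 against 6.997 to 26.9 in the other control tumours. Of 6 epithelial markers, 3 were in the table, and Krt18, a keratin, lay between 5.76 and 20.2 CPM over all tumours, while Cdh1, encoding E-cadherin, lay between 0.569 and 3.33 CPM. Krt8, another keratin, was 0.121 to 4.495 CPM in propranolol tumours, and reached 14.0 CPM in control tumour 4 against 0.827 to 2.33 CPM in the other control tumours. Results without each library are given with the tests below.

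Immunoglobulin transcripts were higher on average in propranolol tumours, but the propranolol tumours were spread more widely than the group means differed and no member passed the test. The 8 members together reached 199, 99.6, 5.05 and 153 CPM in propranolol tumours 1 to 4, against 75.4, 32.2, 22.7 and 97.7 CPM in control tumours 1 to 4. Propranolol tumours thus held the 3 highest sums and also the lowest, and the group ranges overlapped. The sums averaged 114 ± 83.2 CPM in propranolol tumours and 57.0 ± 35.5 CPM in control tumours (SD, n = 4 each), and the highest tumour exceeded the lowest 39.4-fold.

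**Figure D1:**
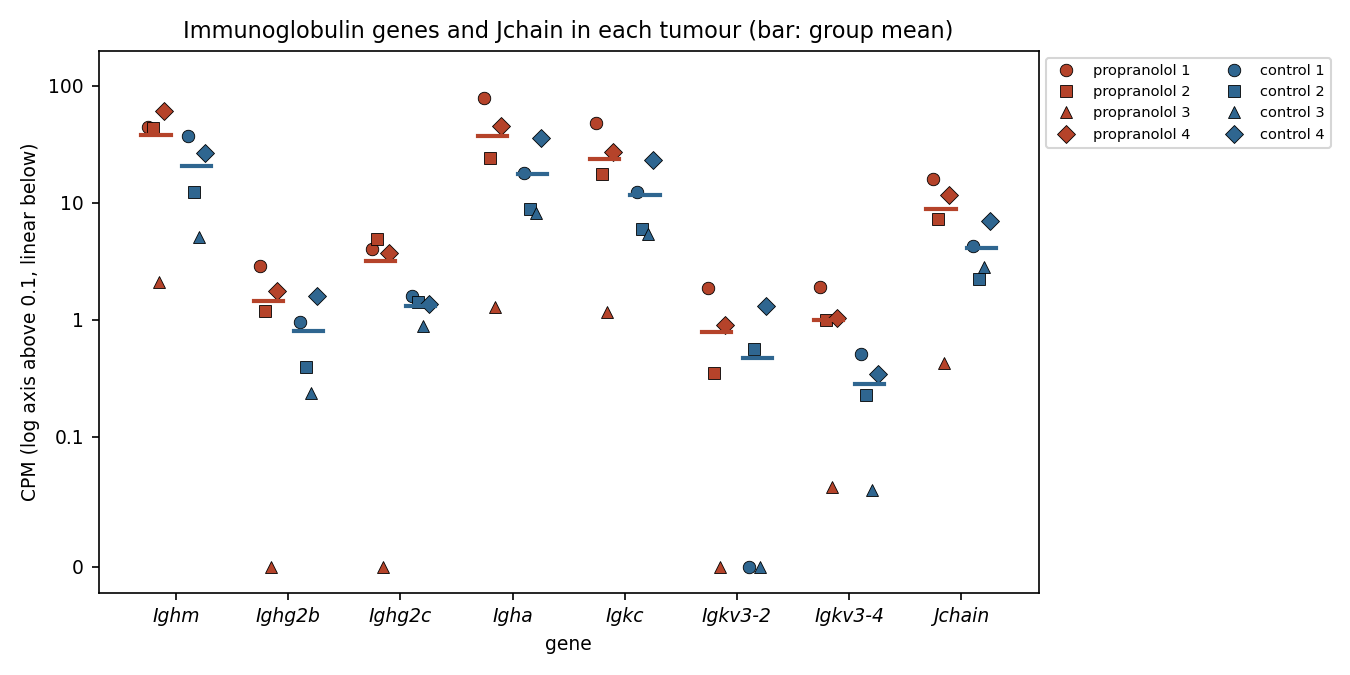
CPM of the 8 members (x axis) in each tumour, on an axis that is logarithmic above 0.1 CPM and linear below, with propranolol tumours left of control tumours, marker shapes for tumour numbers and bars for group means. Propranolol tumour 3 is the lowest of the 8 tumours for 6 of the 8 members, while the other propranolol tumours lie at or above the control mean for most members.

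Ighm, the IgM heavy chain, had 44.6, 43.3, 2.09 and 61.1 CPM in propranolol tumours 1 to 4, against 37.7, 12.5, 5.13 and 27.0 CPM in control tumours 1 to 4. It was above every control tumour in 3 of 4 propranolol tumours and below every one in propranolol tumour 3. EdgeR's quasi-likelihood test gave a log2 fold change of 0.88 (SE 0.91, adjusted p = 0.999).

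Igha, the IgA heavy chain, had 79.1, 24.1, 1.29 and 45.2 CPM in propranolol tumours, against 17.9, 8.87, 8.13 and 35.9 CPM in control tumours. Only propranolol tumours 1 and 4 lay above all controls. Igha had a log2 fold change of 1.08 (SE 0.97, edgeR adjusted p = 0.999).

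The IgG2 heavy chain genes were far lower. Ighg2c had 4.06, 4.91, 0 and 3.77 CPM in propranolol tumours, against 1.59, 1.42, 0.884 and 1.38 CPM in control tumours. Its control values lay close together, and 3 of 4 propranolol tumours exceeded all of them, by a wide gap, while propranolol tumour 3 had no read. A count of 0 in that library, taken to allow up to 3 counts, allows 0.185 CPM, counting error only, which lies below every control tumour. Ighg2b had 2.88, 1.18, 0 and 1.76 CPM in propranolol tumours, against 0.954, 0.398, 0.236 and 1.61 CPM in control tumours, with 2 of 4 propranolol tumours above all controls. The log2 fold changes were 1.27 (SE 0.87) for Ighg2c and 0.87 (SE 0.93) for Ighg2b, each with an edgeR adjusted p of 0.999.

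Igkc, the kappa constant region, had 48.4, 17.6, 1.17 and 27.2 CPM in propranolol tumours, against 12.5, 6.03, 5.42 and 23.2 CPM in control tumours. Its ranking of the tumours was that of Igha (Spearman rho 1 over 8 tumours). For Igkc the log2 fold change was 1.003 (SE 0.91, edgeR adjusted p = 0.999).

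Jchain had 15.9, 7.27, 0.431 and 11.6 CPM in propranolol tumours, against 4.26, 2.22, 2.83 and 7.07 CPM in control tumours. Propranolol tumour 2 exceeded the highest control only narrowly, while tumours 1 and 4 did so clearly. For Jchain the log2 fold change was 1.10 (SE 0.83, edgeR adjusted p = 0.999).

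The V genes were too sparse for the filter on low counts and were not tested in the main fit. Igkv3-4 had 34, 17, 1 and 17 reads in propranolol tumours 1 to 4, against 8, 4, 1 and 6 reads in control tumours 1 to 4, and 3 of 4 propranolol tumours exceeded all controls. Igkv3-2 had 33, 6, 0 and 15 reads in propranolol tumours, against 0, 10, 0 and 23 reads in control tumours. The groups interleaved for Igkv3-2, with zeros in both. Every gene of the table exceeds 1 CPM in at least 2 libraries, and Igkv3-4 does so in propranolol tumours 1, 2 and 4 alone, so its presence among the members rests on the group in which it is higher. Ighg2b exceeds 1 CPM in the same propranolol tumours and, of the control tumours, in control tumour 4 alone (1.61 CPM). Control tumours by themselves would therefore not have kept Ighg2b. In an edgeR fit with no filter, Igkv3-4 had a log2 fold change of 1.81 (SE 0.81, unadjusted p = 0.0512, adjusted p = 0.999) and Igkv3-2 had 0.71 (SE 1.26, adjusted p = 0.999). The authors' deposited table marks Igkv3-4, alone among the 8 members, as up (log2 fold change 1.83, p-value 0.0487, adjusted p-value 0.9997), among 95 genes so marked.

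Across all genes, 0 of 14006 tested genes passed at an adjusted p under 0.05 (0% called), and 0 of the 6 tested members did. Without adjustment, edgeR had 273 genes with p under 0.05 (1.95%, or 1.24% counting those higher in propranolol tumours) and 0 tested members, and limma-voom had 249 genes and 0 tested members. DESeq2 had 337 genes (1.65% of genes were below 0.05 and higher) and 1 of 8 members, Igkv3-4, whose higher level in propranolol tumours is tied to its presence in the table. All 6 tested members had a fitted log2 fold change above 0, as did 49.4% of all tested genes, and their median was 1.04 against -0.0022 over all tested genes. For 3 of the 6 tested members, 3 or more propranolol tumours exceeded all controls, a pattern that 5.86% of tested genes showed. The 6 members varied together across tumours, so these counts are not separate observations. They include Ighg2b, whose presence in the table depends on propranolol tumours. With limma-voom the median of the members was 0.39 and Ighg2c turned to -0.045.

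Propranolol tumour 3 had the lowest value of all 8 tumours for 6 of 6 tested members, against 14.1% of tested genes. Without it, log2 fold changes were 1.27 for Ighm and Ighg2b, 1.40 for Igkc, 1.48 for Igha, 1.50 for Jchain and 1.68 for Ighg2c. In that fit 4 of these 6 members had an unadjusted p under 0.05 (Ighg2c, Jchain, Igha and Igkc), as did 7.23% of all genes (5.35% with a higher level), and 0 genes passed after adjustment. Ighg2c then had a standard error of 0.29 (edgeR unadjusted p = 1.93e-04, adjusted p = 0.640). Leaving out the lowest propranolol tumour raises the difference by construction, so these values are a description. Without propranolol tumour 1 the values were instead 0.38 for Igkc, 0.41 for Igha and 0.30 for Ighg2b. Without control tumour 4, the library with muscle transcripts, Igha had 1.69 and Igkc 1.57.

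**Figure D2:**
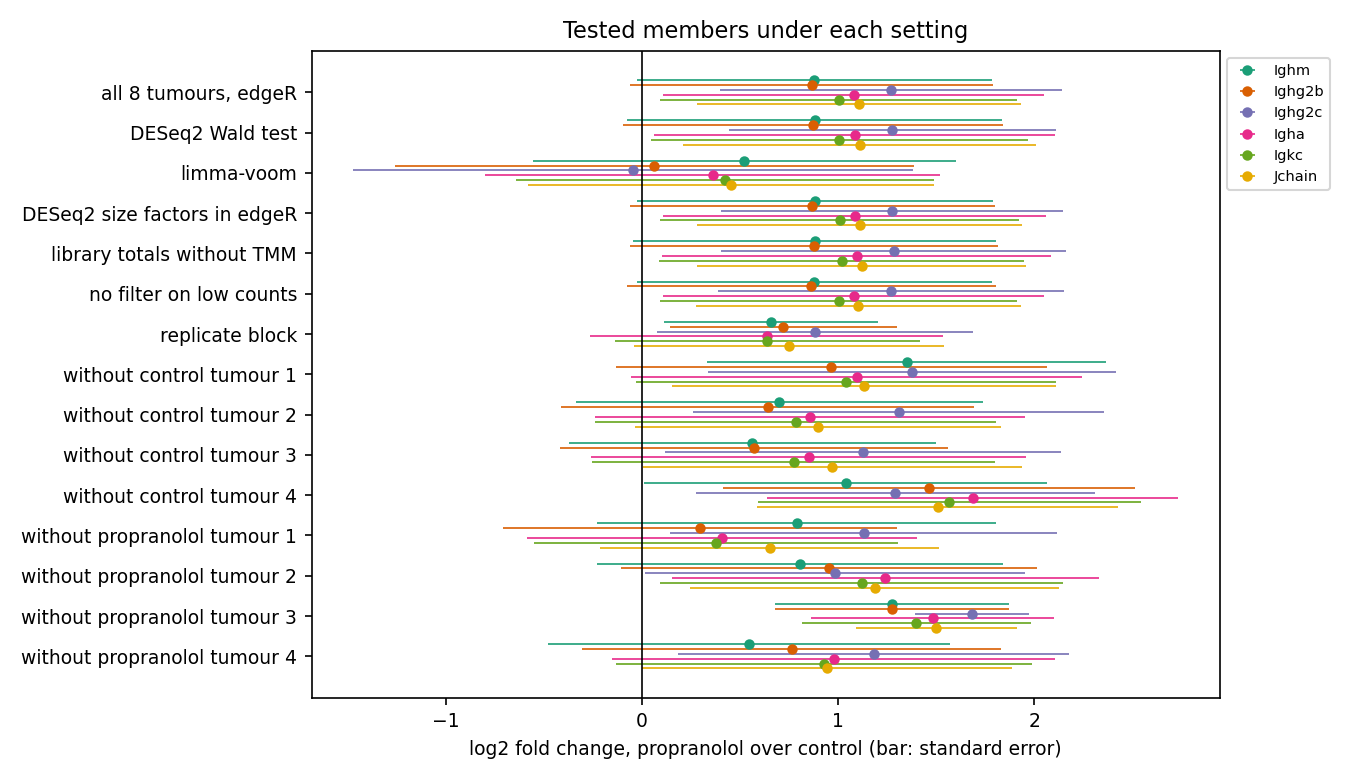
Log2 fold change of propranolol over control (x axis) for the 6 tested members under each setting (y axis), with bars for standard errors. Nearly all values lie above 0, the lowest values of each member come from limma-voom or the fit without propranolol tumour 1, and leaving out propranolol tumour 3 shortens the bars of all 6 members.

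The tumour numbers are not stated to be pairs. Over all genes, deviations of same-numbered tumours from their group means were correlated (r = 0.19 to 0.51). Propranolol tumours 1 and 4 nevertheless had a higher r with control tumours 4 and 1 (0.38 and 0.32) than with their own number (0.19 and 0.28). Taking same-numbered tumours as pairs and leaving out Igkv3-4, 7 of 7 members were higher in the propranolol tumour of pair 1, where 49.8% of tested genes were. The count was 6 of 7 in pair 2 (49.2% of genes) and 6 of 7 in pair 4 (52.1% of genes), the exception in both being Igkv3-2. In pair 3 it was 0 of 7 (49.7% of genes), with Igkv3-2 at 0 in both tumours. The 7 members include Ighg2b, whose presence in the table depends on propranolol tumours. With the number as a block in edgeR, log2 fold changes of the 6 tested members were 0.64 to 0.88, and 0 passed.

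Per length of gene model, Igkc was the most abundant member in 8 of 8 tumours. In the deposited FPKM, which scales counts by gene length and library size, it reached 93.6, 33.4, 2.13 and 50.6 in propranolol tumours and 23.8, 11.4, 9.86 and 43.8 in control tumours. Over the 8 tumours the FPKM averaged 33.6 ± 29.6 for Igkc, 15.6 ± 11.3 for Ighm, 10.4 ± 9.80 for Igha and 2.58 ± 2.11 for Jchain (SD, n = 8). It averaged 1.81 ± 1.82 for Igkv3-4, 1.71 ± 1.34 for Ighg2c, 1.68 ± 1.87 for Igkv3-2 and 0.425 ± 0.363 for Ighg2b. Ighm exceeded Igha in 6 of 8 tumours, and Igkv3-4, Ighg2c and Igkv3-2 did not keep a fixed order, each exceeding the next in 4 or 5 of 8 tumours. The order depends on length: the deposited values imply 533 bases for Igkc and 2672 bases for Igha, whereas the shorter Igha transcript in GENCODE M21 has 1100 bases. Division by the longer length lowers the FPKM of Igha, and in CPM the highest mean was that of Ighm.

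The class make-up over the 4 heavy constant members varied between tumours in both groups. GENCODE M21 annotates 13 constant-region genes, of which 5 are members, so classes encoded by the others are outside these shares. Igha made up 60.5%, 32.8%, 38.2% and 40.4% of the counts of the 4 heavy constant genes in propranolol tumours 1 to 4, against 30.9%, 38.2%, 56.6% and 54.5% in control tumours 1 to 4. Exact 95% binomial intervals, which cover counting error only, were 58.5% to 62.5% in propranolol tumour 1 and 27.9% to 34.0% in control tumour 1. Averages were 43.0% ± 12.1 in propranolol tumours and 45.0% ± 12.5 in control tumours (SD, n = 4 each), so the difference was smaller than the spread. Ighm took most of the rest, with 34.1%, 58.9%, 61.8% and 54.6% in propranolol tumours and 64.8%, 53.9%, 35.7% and 41.0% in control tumours. IgG2 genes took 5.32%, 8.29%, 0% and 4.94% in propranolol tumours and 4.38%, 7.84%, 7.79% and 4.54% in control tumours. The 0% is 0 of 55 counts, which by the same limit of 3 counts allows up to 5.45%. That is above the share in 4 of the other tumours, against which a lower IgG2 share was not detectable at this depth. It is below the share of propranolol tumour 2 (interval 6.82% to 9.97%) and control tumours 2 (5.43% to 10.9%) and 3 (4.75% to 11.9%). Only the interval of propranolol tumour 2 lies wholly above that limit.

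Within IgG2, Ighg2c held 58.5%, 80.6% and 68.1% of the counts in propranolol tumours 1, 2 and 4, against 62.5%, 78.1%, 78.9% and 46.2% in control tumours 1 to 4. The intervals of propranolol tumour 2 (71.6% to 87.7%) and control tumour 4 (32.2% to 60.5%) did not overlap. Of the reads on the V pair, Igkv3-4 held 34 of 67, 17 of 23 and 17 of 32 in propranolol tumours 1, 2 and 4, against 8 of 8, 4 of 14 and 6 of 29 in control tumours 1, 2 and 4. Propranolol tumour 3 and control tumour 3 had a single read each. GENCODE M21 annotates 218 immunoglobulin V genes, of which 2 are members, so these shares do not describe V gene usage. The share was 73.9% (interval 51.6% to 89.8%) in propranolol tumour 2 and 20.7% (7.99% to 39.7%) in control tumour 4, while control tumour 1 had 100% (63.1% to 100%).

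**Figure D3:**
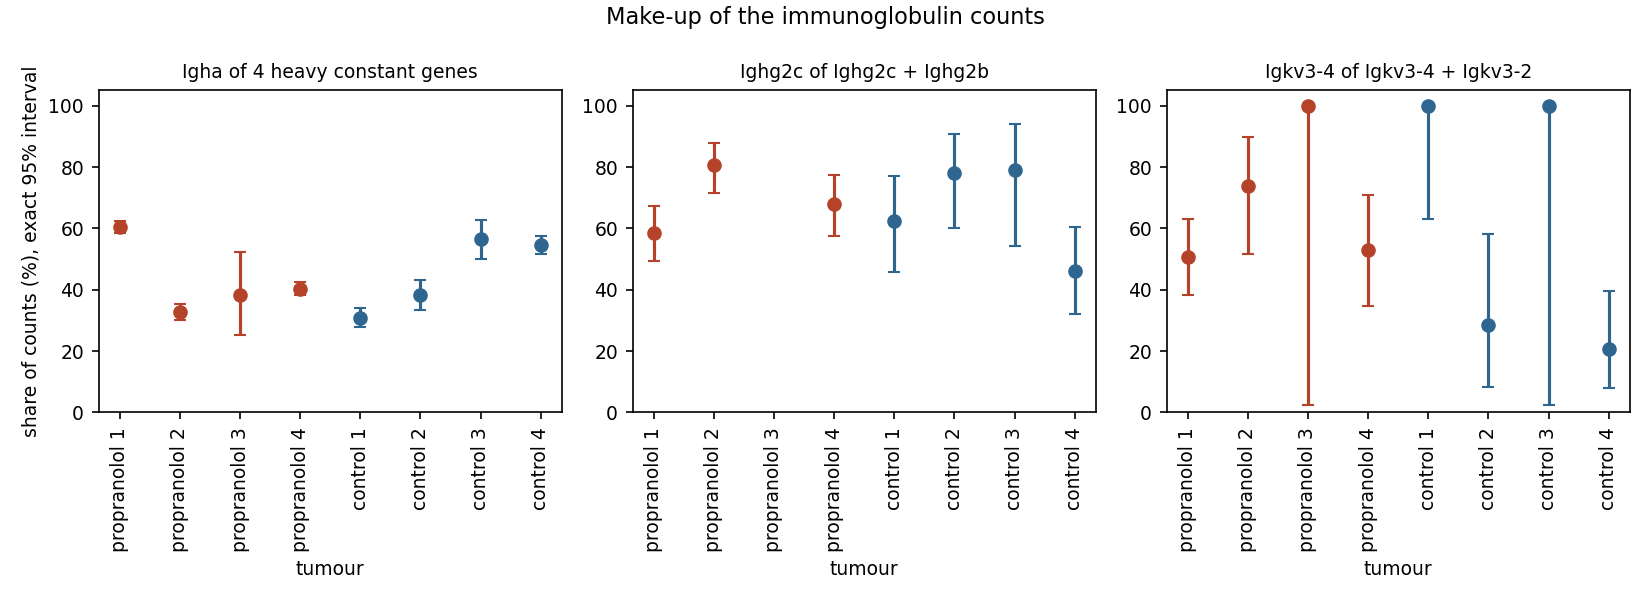
Share of counts (y axis, percent) taken by Igha among the 4 heavy constant genes, by Ighg2c among both IgG2 genes and by Igkv3-4 among both V genes, per tumour (x axis), with exact 95% binomial intervals. The ranges of the groups overlap in each panel, the Igkv3-4 share is spread most widely in control tumours, and propranolol tumour 3 has no IgG2 read to divide.

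Light chain and J chain counts were set against heavy chain counts. Igkc had 37.1, 23.9, 34.5 and 24.3 counts per 100 heavy constant counts in propranolol tumours, against 21.4, 26.0, 37.7 and 35.2 in control tumours, and averaged 30.0 ± 6.84 in propranolol tumours and 30.1 ± 7.65 in control tumours (SD, n = 4 each). The Igha share of Igha plus Ighm counts was 63.9%, 35.7%, 38.2% and 42.5% in propranolol tumours, against 32.3%, 41.5%, 61.3% and 57.1% in control tumours. The 3 tumours with a share above 50%, propranolol tumour 1 and control tumours 3 and 4, also had the 3 highest Igkc ratios. On the share these tumours lie apart from the other 5, whereas on the Igkc ratio propranolol tumour 3 (34.5) was close to control tumour 4 (35.2). Both measures share the heavy counts in their denominators, and no correlation over the separate clusters of the share is given. Jchain had 12.9, 10.8, 12.7 and 10.9 counts per 100 Igha and Ighm counts in propranolol tumours, against 7.67, 10.4, 21.3 and 11.3 in control tumours. Control tumour 3 was highest, with an interval of 15.3 to 29.2, above that of each other tumour except propranolol tumour 3, whose ratio rests on 7 Jchain counts.

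**Figure D4:**
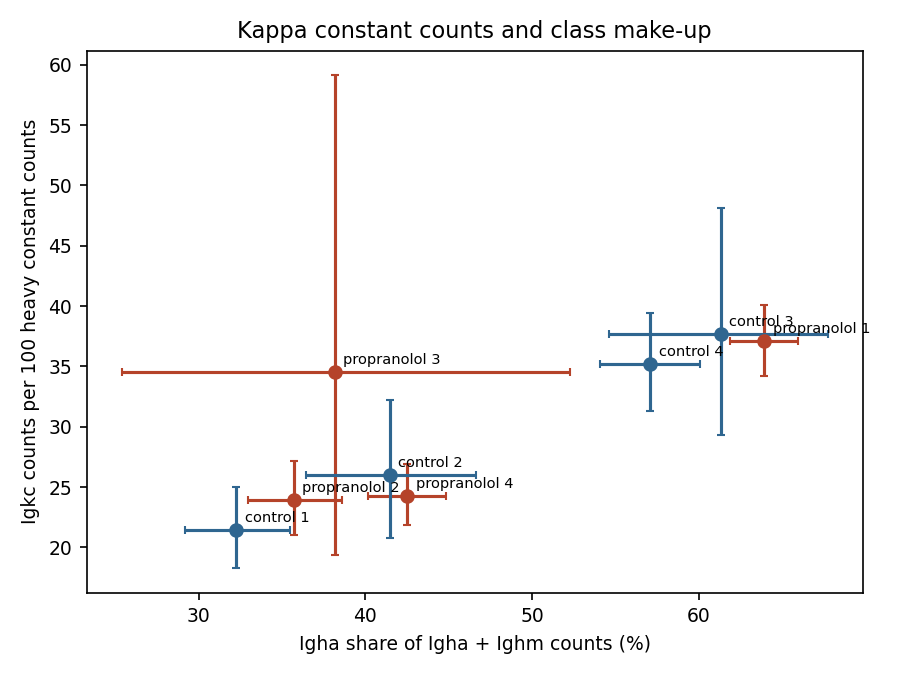
Igkc counts per 100 heavy constant counts (y axis) against the Igha share of Igha plus Ighm counts (x axis, percent) in each tumour, red for propranolol and blue for control, with exact 95% intervals. Propranolol tumour 1 and control tumours 3 and 4 lie at the upper right, and propranolol tumour 3 has the widest intervals.

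Across tumours the tested members followed one another closely. Pearson's r of log2 CPM over the 8 tumours, which share their libraries between genes, was 0.89 to 0.999 over the 15 pairs of tested members. It was highest for Igha with Igkc and lowest for Ighg2b with Ighg2c, while Ighm with Igha had 0.92. Igkv3-2 followed least, with an r of 0.62 to 0.76 against the other members. Spearman's rho of the tested pairs was lower at its lowest, from 0.74 (Ighg2c with Ighg2b, Igha and Igkc) to 1. Propranolol tumour 3 lay far below the rest, with a mean log2 CPM of the tested members of -0.83 against 1.33 to 4.17. The r between members without that tumour was not computed.

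Other genes of B lineage cells ranged widely in level, the 2 signalling chains of the B cell receptor being low, and 0 of those tested passed. Cd79a, a signalling chain of the B cell receptor, had 1.75, 1.18, 0.616 and 0.486 CPM in propranolol tumours, against 1.08, 0.967, 0.354 and 0.805 CPM in control tumours. Its partner Cd79b had 0.395, 0.651, 0.246 and 1.76 CPM in propranolol tumours, against 0.891, 0.626, 0.295 and 1.32 CPM in control tumours. In propranolol tumour 4, Cd79a was the lowest of its group while Cd79b was the highest of all 8 tumours. The defining B cell markers Ms4a1 and Pax5 are not analysed here. Of 20 B cell surface and signalling genes, 11 were in the table, 9 with a higher and 2 with a lower fitted level, and 0 passed. A higher fitted level was found for 49.4% of all tested genes. The smallest unadjusted p values were those of Cd38, an ectoenzyme found on many immune cells (log2 fold change 0.93, SE 0.49), and Cd22, an inhibitory B cell receptor (0.59, SE 0.40), followed by the adaptor Blnk (0.17, SE 0.14) and the kinase Btk (0.34, SE 0.29), both of which myeloid cells also express. Tested members of the list had a median of 0.34.

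Transcription factors of the B lineage gave 5 of 7 with a higher fitted level (49.4% of all tested genes), and 0 passed. Ikzf3, a lymphoid factor also present in T cells, averaged 6.71 ± 6.11 CPM in propranolol tumours and 2.52 ± 1.195 CPM in control tumours (SD, n = 4 each), a log2 fold change of 1.41 (SE 0.89). Bach2, Spib and Tcf3 had 0.39 (SE 0.34), 0.35 (SE 0.38) and -0.09 (SE 0.10).

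Of 15 plasma cell genes in the table, 9 had a higher (49.4% of all tested genes) and 6 a lower fitted level, and 0 passed. Irf4, a factor needed for plasma cells and used by T cells, had 5.36, 1.89, 1.11 and 6.44 CPM in propranolol tumours, against 1.97, 1.65, 1.12 and 2.24 CPM in control tumours (log2 fold change 1.08, SE 0.53). Propranolol tumours 1 and 4 stood above the rest. Pim2, a survival kinase, had 0.49 (SE 0.23), Cd28, a receptor of plasma cells and T cells, had 1.26 (SE 0.76), and Txndc5, a disulphide isomerase of the endoplasmic reticulum, had -0.18 (SE 0.10). Prdm1, the factor that drives plasma cell fate, went another way from the antibody genes: it had 10.9, 8.04, 33.8 and 13.8 CPM in propranolol tumours, against 9.60, 8.42, 22.1 and 5.46 CPM in control tumours, and was highest in propranolol tumour 3. Sdc1, a plasma cell marker that epithelial cells share, was also highest there, at 55.8 CPM. Other genes of the list were lowest in that tumour: Tnfrsf17, encoding the survival receptor BCMA, at 0.554 CPM, the surface receptor Slamf7 at 0.431 CPM, Cd28 at 0.369 CPM and Irf4. In all, propranolol tumour 3 was the lowest of the 8 tumours for 4 of the 15 genes (14.1% of all tested genes) and the highest for 2. The share of all genes that were highest in it was not computed. Prdm1, Sdc1, Tnfrsf17, Slamf7 and both Cd79 genes were named after their values were seen.

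Secretory chaperones, which many cell types use, gave 3 of 10 with a higher fitted level (49.4% of all tested genes) and a median log2 fold change of -0.04. The class switching and hypermutation list gave 1 of 8 with a higher level and a median of -0.10, and its repair genes also act in any dividing cell. For both lists 0 passed. Examples with the smallest p were Sdf2l1 (0.16, SE 0.22), Pdia4 (-0.06, SE 0.09) and Polh (-0.16, SE 0.10), all as log2 fold changes.

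Receptors that bind antibody gave 9 of 9 with a higher fitted level (49.4% of all tested genes), a median of 0.41 and 0 past the threshold. The log2 fold changes ran from 0.02 (Fcgr2b) to 1.25 (Fcgr4), with Fcgrt at 0.08 and Fcgr3 at 0.12. All come from the same 8 tumours, so the count is not one of separate observations. Fcgr4, an activating receptor for IgG2 subclasses on myeloid cells, had 96.3, 38.6, 6.96 and 177 CPM in propranolol tumours, against 43.0, 21.05, 16.1 and 53.5 CPM in control tumours (log2 fold change 1.25, SE 0.86). Like the antibody genes, it was lowest in propranolol tumour 3 and highest in another propranolol tumour. Fcer1g, the shared signalling chain of these receptors, had 0.41 (SE 0.35). The IgE receptor chains Fcer1a and Ms4a2 had 0.68 (SE 0.68) and 0.79 (SE 0.69).

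Among cytokines that attract or sustain B cells, 2 of 7 tested had a higher fitted level (49.4% of all tested genes), the median was -0.03 and 0 passed. Tnfsf13b, which encodes the survival factor BAFF, had 3.50, 1.597, 0.924 and 6.38 CPM in propranolol tumours, against 1.34, 1.76, 1.18 and 1.78 CPM in control tumours (log2 fold change 1.03, SE 0.53). Ltb, a lymphotoxin chain, had 1.17 (SE 0.78), Il6 had -0.40 (SE 0.52) and Tgfb1, a switch factor for IgA in mice, had -0.06 (SE 0.11). None of 6 recombination and surrogate light chain genes is analysed here.

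T cell transcripts, like the summed antibody genes, were highest in propranolol tumours 1 and 4 and lowest in propranolol tumour 3. A correlation between the 2 sums was not computed. All 10 T cell markers were in the table, each with a higher fitted level, where 49.4% of all tested genes had one. Of these markers, 2 were at an unadjusted edgeR p under 0.05 (1.24% of all genes were, in that direction), and 0 passed. None was at 0 in any tumour, and their summed level was 8.25 to 196 CPM in propranolol tumours and 15.3 to 51.5 CPM in control tumours. It was 154, 48.8, 8.25 and 196 CPM in propranolol tumours 1 to 4, so propranolol tumour 3 was lowest in both T cell and antibody transcripts. In control tumours 1 to 4 it was 51.5, 26.05, 15.3 and 43.0 CPM. Control tumour 1 thus exceeded propranolol tumour 2 and control tumour 4 in T cell transcripts, whereas it lay below both in antibody transcripts. Of the other markers, 5 of 5 erythroid genes had a lower fitted level (49.4% of all tested genes had a higher one). The erythroid median log2 fold change was -1.16, and 0 of the 5 passed. An unadjusted edgeR p under 0.05 was reached by 3 of them, and in that direction by 100 of all 14006 tested genes. The erythroid genes summed to 25.4 to 70.9 CPM in propranolol tumours and 40.6 to 194 CPM in control tumours. The highest was control tumour 4 and the next 87.6 CPM in control tumour 3. The 6 of 8 genes of plasmacytoid dendritic cells that were in the table, led by Bst2, summed to 424 to 910 CPM in propranolol tumours and 432 to 721 CPM in control tumours. Siglech, which defines the last type, did not exceed 2.03 CPM. Lymph node stroma had 2 of 7 markers in the table, summing to 2.54 to 5.65 CPM in propranolol tumours and 2.16 to 3.37 CPM in control tumours, and keratinocytes 2 of 7, summing to 5.77 to 7.75 CPM in propranolol tumours and 4.597 to 8.90 CPM in control tumours. The part of these cells in the antibody results was not tested.

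Genes outside the members whose pattern was most like theirs were chosen by Pearson's r over 8 tumours with the mean log2 CPM of the tested members. Of 14000 genes, 280 had an r over 0.9, and the 9 highest were Ubd, Rab37, Slain1, Serpina3g, Iigp1, Tnfsf10, Serpina3f, Itga4 and Tgtp2. Their r was 0.98 to 0.99, their Spearman's rho 0.93 to 1, and their r 0.93 to 0.99 over 6 tumours without propranolol tumour 3 and control tumour 3, the tumours farthest from the median. Ubd, encoding an interferon-induced ubiquitin-like protein, had 34.8, 12.5, 0.0616 and 34.3 CPM in propranolol tumours, against 7.89, 2.56, 2.53 and 8.51 CPM in control tumours. Iigp1 and Tgtp2 are interferon-induced GTPases and Itga4 is an integrin chain of leukocytes. Serpina3g and Serpina3f, and Tgtp2 with Tgtp1, are close copies that can share reads. These genes are the extremes of a search over the whole table, so their r is a description.

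**Figure D5:**
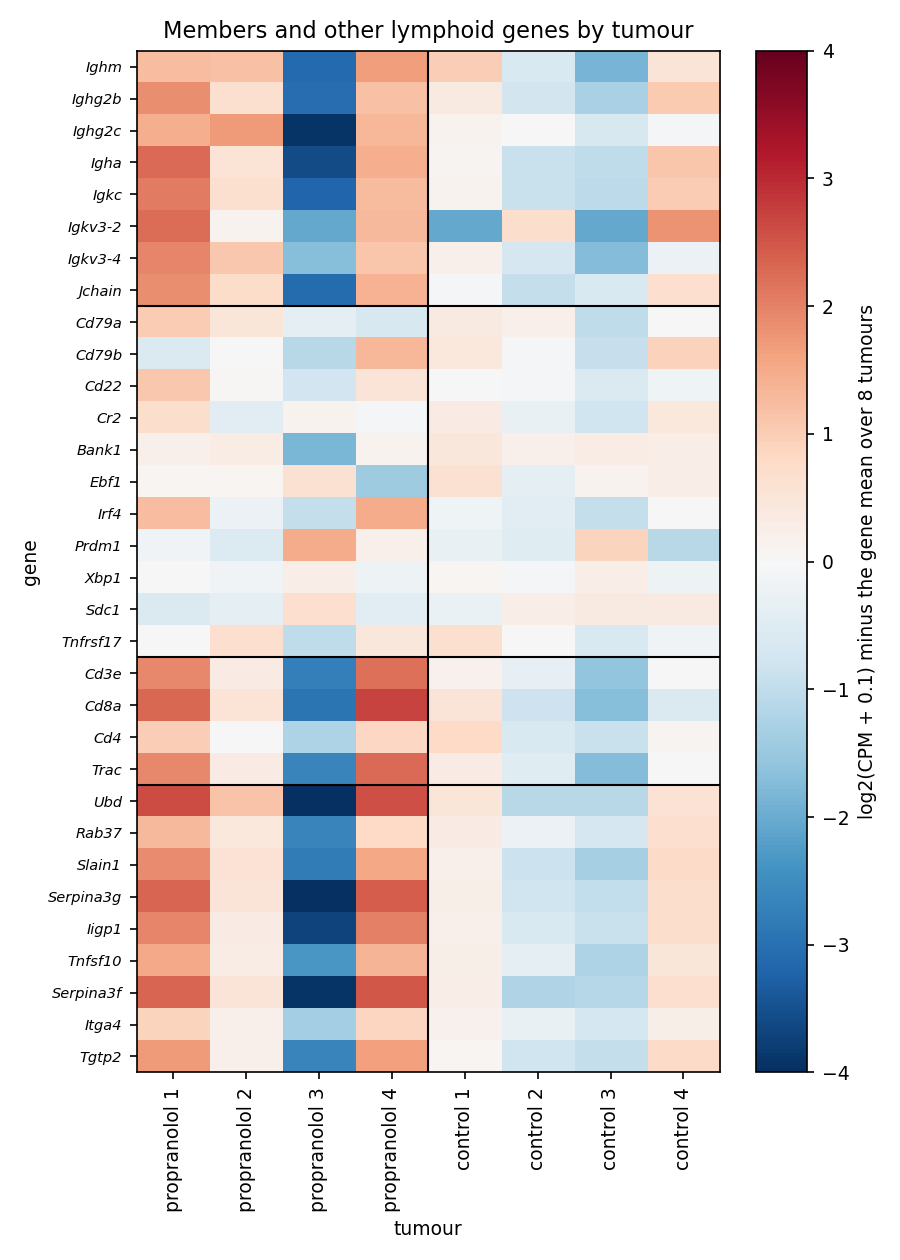
Heat map of log2(CPM + 0.1) minus each gene's mean over the 8 tumours (colour), with tumours in columns and genes in rows, in blocks for the 8 members, B lineage genes, T cell genes and the 9 genes of the most similar pattern. The blocks of members, T cell genes and similar genes are low in propranolol tumour 3 and high in propranolol tumours 1 and 4. The B lineage genes drawn, a chosen part of the lists, show weaker and mixed differences. Over the full lists, propranolol tumour 3 was lowest for 7 of 11 B cell surface and signalling genes and highest for 0. It was lowest for 2 of 7 transcription factors and 4 of 15 plasma cell genes, and highest for 2 of each. Of all tested genes, 14.1% were lowest in that tumour, and the share highest in it was not computed.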

How the data were processed

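Read counts and FPKM per gene were deposited by the authors in one table of 8 tumours, per the file headers, with the authors' log2 fold change, p-value and adjusted p-value. Tools in the submitters' processing notes are fastp 0.19.3, HISAT2 2.1.0, featureCounts 1.6.2, StringTie 1.3.4d, DESeq2 1.22.1, edgeR 3.24.3 and GRCm39. How strand and multi-mapped reads were treated is stated neither in the labels nor in the headers. Members and gene lists were chosen with earlier results of these data known. Counts were tested with edgeR 4.0.16 in R 4.3.3 (quasi-likelihood F test, TMM, filterByExpr, Benjamini-Hochberg adjustment over 14006 genes, threshold 0.05), and 127 genes were filtered out. CPM used TMM-scaled library totals. DESeq2 1.42.0, limma-voom (limma 3.58.1), other scalings, no filter, a replicate block and leaving out each tumour were alternatives. Correlations used log2 CPM with a prior count of 2.

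All constant-region genes, both V genes and Jchain are named, with the 4 smallest p of each list and the 10 genes most alike, except genes that are not reported here. Same-numbered tumours had correlated deviations from their group means (r = 0.19 to 0.51 over 4 pairs, each over 0.1). The numbers were therefore taken as pairs in the block fit and the counts per pair, but not in the main fit. Differently numbered tumours had r = -0.48 to 0.38, and 2 such pairs (propranolol 1 with control 4, 0.38, and propranolol 4 with control 1, 0.32) exceeded the propranolol tumour's own pair (0.19 and 0.28). The planned correlation of the Igkc ratio with the Igha share is not given, because the tumours fell into separate clusters. No 2 libraries of a group were copies (chi-square per degree of freedom at least 12.7, near 1 for copies). On simulated counts of 13929 genes with the 4 against 4 layout of propranolol and control, edgeR recovered 66 of 100 genes changed 2-fold and 85 of 100 changed 4-fold, with 8 false calls. The changed genes were drawn at random. These rates therefore do not give the chance of finding a change in the tested members, whose standard errors were 0.83 to 0.97. Sequences came from GENCODE M21 (GRCm38), and all other coordinates are those of the deposited table.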

Additional observations from a re-analysis of the deposited data

Results flagged for a closer look

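Within groups of 4 tumours, 121 sets of values were checked for a tumour far from the rest of its group. Chance alone marks about 1 in 20 sets, and 4 were marked, which is no more than that rate. The value given is the gap to the nearest tumour divided by the range of the group. The Ighg2b share of heavy constant counts was highest in control tumour 4 (2.45%, against 1.64% to 1.72% in the other control tumours, gap 0.905). Among genes outside the members, Sdf2l1 was highest in control tumour 4 (gap 0.878), Ssr4 was lowest in control tumour 3 (gap 0.840) and Tgfb1 was lowest in propranolol tumour 4 (gap 0.916).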

How the results depend on the processing

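The count of genes past the threshold was 0, and that of members 0, in all 15 fits. The 6 tested members kept a log2 fold change above 0 in every fit except Ighg2c with limma-voom, at -0.045, where the cause was not tested. Leaving out 1 tumour gave 0.41 to 1.69 for Igha, 0.30 to 1.47 for Ighg2b, 0.98 to 1.68 for Ighg2c, 0.55 to 1.35 for Ighm, 0.38 to 1.57 for Igkc and 0.65 to 1.51 for Jchain. Genes near 0 changed sign when 1 tumour was left out: Il6 had -0.73 to 0.041 (above 0 without control tumour 3), Pdia6 -0.12 to 0.040 (without control tumour 4) and Tgfb1 -0.11 to 0.020 (without control tumour 3, and 0.0065 without propranolol tumour 4), where the cause was not tested. The replicate block gave 717 genes at an unadjusted p under 0.05, against 273 without it, and gave Igkc 0.64, and it changed no call. The difference in summed CPM of all members was 57.0 (28.7 to 93.3 when leaving out 1 tumour). Depth limits propranolol tumour 3, with 55 heavy constant and 19 Igkc counts, and the V genes, with 87 and 88 reads in all.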
